A study of Homo sapiens with 2 samples.

Results

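The genes described here encode the chaperones and co-chaperones that steroid receptors depend on: the co-chaperone immunophilins FKBP5 and FKBP4, the HSP90 proteins HSP90AA1 and HSP90AB1, the HSP70 protein HSPA8, the co-chaperones PTGES3, STIP1 and DNAJB1, the small heat shock protein HSPB1 and the ubiquitin ligase STUB1. A probe set belonged to the group when the platform annotation named 1 of these 10 genes as its gene. By that rule 23 of 54675 probe sets were found, covering 9 genes of 19775 named ones. The tenth gene, HSPA8, had 4 probe sets, each annotated to several genes at once, and these are given apart below.

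The series set side by side C4-2B, an established human prostate cancer cell line that responds to the antiandrogen enzalutamide, and the resistant line C4-2B-MDVR, which was derived from it by prolonged culture with the drug. Both lines grew in RPMI-1640 with 10% fetal bovine serum and were untreated when RNA was taken, and the purpose stated was to find genes responsible for the resistance. Total RNA of each line was hybridized to 1 Affymetrix array, so there is no spread between replicates and no p-value or error can be given for any gene. The labels give the resistant line as a single selected derivative, and whether it is 1 clone is not given in the sources used here. Of the labels of the resistant sample, title, source and cell line give C4-2B-MDVR, whereas the description gives TaxR, a docetaxel-resistant line. The cell line label was followed, and a difference is always the library labelled C4-2B-MDVR minus the library labelled C4-2B.

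Values are probe set intensities, and differences are on the log2 scale, where 1 is a 2-fold difference. A gene was taken as above the detection floor when its brighter value reached the median log2 intensity of that array, 5.39 in C4-2B or 5.44 in the resistant line. This held for 13437 genes, with a median difference of 0.041 and a median absolute difference of 0.242. All 7 luminal prostate markers measured (KRT8, KRT18, EPCAM, CDH1, HOXB13, FOLH1 and KLK3) were above the floor on both arrays, with a summed intensity of 21424 in C4-2B and 12246 in the resistant line. Such a sum follows the brightest genes most, so it does not show that each marker was lower. Of other cell types, 4 of 6 fibroblast, 2 of 4 endothelial and 1 of 3 blood markers were above it, with summed intensities of 470 and 428, 163 and 168, and 97.4 and 101. Their part in the results was not tested.

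Steroid receptors are folded through a relay of chaperones. HSP70 with a J-domain partner such as DNAJB1 takes up the new receptor, STIP1 bridges HSP70 to HSP90, and PTGES3 (p23) stabilizes the closed HSP90 complex in which the receptor can bind hormone. FKBP4 and FKBP5 then compete for the same docking site on HSP90, and STUB1 (CHIP) can send clients to the proteasome instead. FKBP5 is itself induced by androgen, glucocorticoid and progestin receptors through hormone response elements, many of them in its introns and far upstream, whereas several of the chaperones are induced by heat shock factors through heat shock elements close to their start sites.

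The stretches printed here show where letters of these motifs lie near the start sites. They come from RefSeq promoter windows (GRCh38.p14) that run from 250 bases before to 50 bases after a gene's start, and 8 of the 10 genes had such a window, 15 windows in all; FKBP4 and STUB1 had no entry. Capitals mark the motif, each line runs 5′ to 3′ on the gene's strand, and position 1 is the first transcribed base. For FKBP5 (chr6:35728564-35728683, minus strand, positions -100 to 20) the capitals mark the short hormone response motif, 1 arm of the full element, AGAACA or its reverse complement TGTTCT. For the others they mark a short heat shock motif, GAANNTTC or TTCNNGAA. A single match is part of a heat shock element and not a full one. Both forms read the same on either strand and may overlap each other.
FKBP5: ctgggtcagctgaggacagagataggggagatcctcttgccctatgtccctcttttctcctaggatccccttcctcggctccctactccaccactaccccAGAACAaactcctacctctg
HSP90AA1: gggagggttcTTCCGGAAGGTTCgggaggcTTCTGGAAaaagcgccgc
HSP90AB1: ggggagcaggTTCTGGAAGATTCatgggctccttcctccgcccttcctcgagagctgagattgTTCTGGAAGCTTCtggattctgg
DNAJB1: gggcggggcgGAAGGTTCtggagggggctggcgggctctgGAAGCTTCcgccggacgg
HSPA8: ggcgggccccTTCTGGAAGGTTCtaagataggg
HSPB1: cttaacgagaGAAGGTTCcagatgaggg

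The heat shock stretches lie at chr14:102087095-102087142 for HSP90AA1, chr19:14518427-14518484 for DNAJB1 and chr11:123062169-123062201 for HSPA8, all on the minus strand, and at chr6:44247768-44247853 for HSP90AB1 and chr7:76302481-76302508 for HSPB1, both on the plus strand. They begin 98, 87, 65, 175 and 192 bases before the start in that order. The short heat shock motif was present in at least 1 window of 6 of the 8 genes, against 16.2% of the 27305 genes in the table. The sixth gene was STIP1, with a match just after its start. By window the share in the table was 13.5% of 35116. The 8 genes had 15 windows, and a gene with several windows has more places for a match. FKBP5 and PTGES3 had no match to the heat shock motif in their windows. The full hormone response element, both arms 3 bases apart and facing each other, matched in 0 of the 8 genes and in 1 window of the whole table. The single arm matched in FKBP5 and in HSP90AB1, against 17.5% of genes. In HSP90AB1 this arm overlaps a heat shock motif. In FKBP5 it begins at position 1, within the transcribed bases and not before the start, and the other FKBP5 window had no match. A match is a description of the letters and not evidence of a bound site, and the absence of a match says only that these letters are not in the window.

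FKBP5 was the 1 measured member that differed by 2-fold or more, and it was lower in C4-2B-MDVR in each of its 3 probe sets. FKBP5 (FKBP51) holds steroid receptors in complexes with altered hormone affinity and acts in feedback on the receptors that induce it. The probe set with the highest mean, which stands for the gene, read 2689 in C4-2B and 730 in the resistant line, 3.69-fold lower, a log2 difference of −1.88. A second probe set went from 1161 to 267, a log2 difference of −2.12. The dimmest went from 422 to 116, a log2 difference of −1.86. The 3 probe sets thus covered a range of 0.256 on the log2 scale although their own levels differed widely, and all were above the floor on both arrays. None of the 3 names carries the _s_at or _x_at ending with which Affymetrix marks probes shared between transcripts.

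Among the 13437 genes above the floor, FKBP5 stood at rank 109 from the lowest difference, with 0.804% of genes lower. The share of all genes that were 2-fold or more lower was 3.50%, and 3.17% were 2-fold or more higher; for 3-fold, which FKBP5 also passed, these were 1.20% and 1.45%. Among the 1584 genes as bright as most members (mean log2 intensity of 10 or more), 2.21% were 2-fold or more lower and 1.33% higher. Of the 9 member genes, 1 was lower and 0 higher by this threshold, which is a statement about FKBP5 and not about the group. By probe set, 3 of 23 were 2-fold or more lower and 0 higher, beside 4.01% and 2.56% of all probe sets above the floor. All 3 belong to FKBP5 and are readings of 1 gene. Which of its transcripts each probe set reads was not tested.

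**Figure D1:**
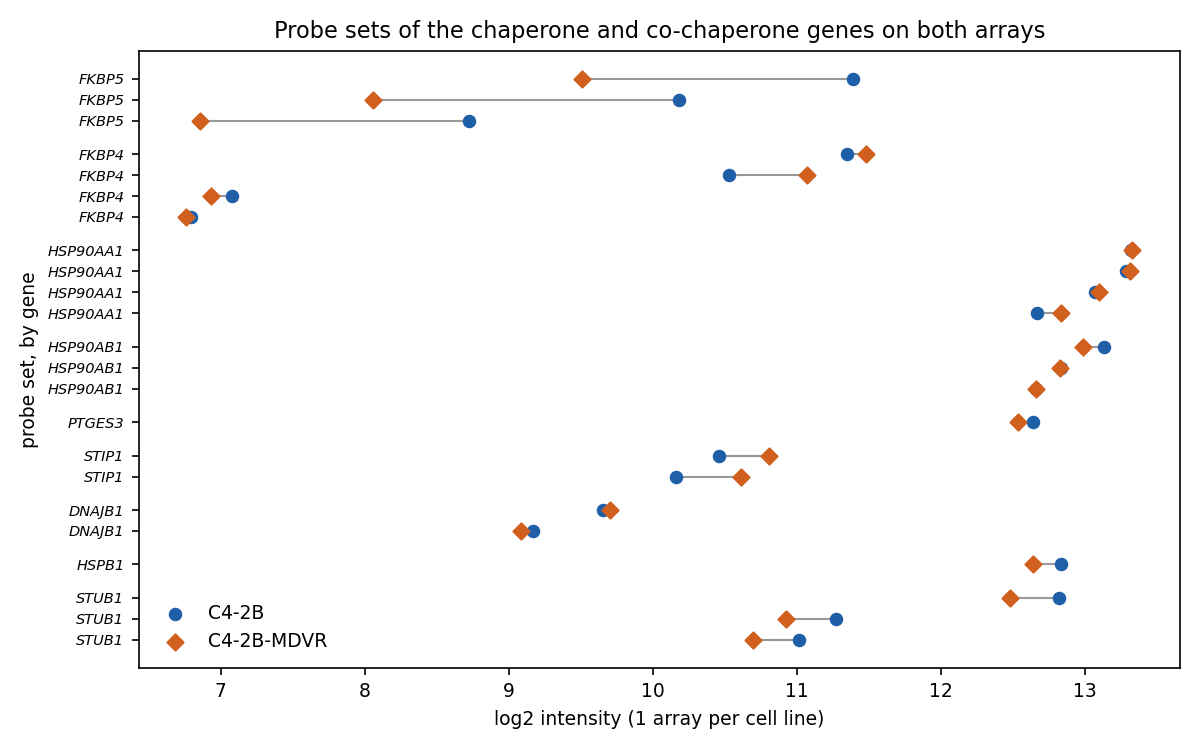
Log2 intensity (horizontal axis) of the 23 probe sets of 9 member genes (vertical axis), with circles for C4-2B, diamonds for C4-2B-MDVR and a line joining both values of a probe set; there is 1 array per cell line, so no error bars, and levels of different probe sets cannot be ranked against each other. The 3 FKBP5 lines are the long ones, with differences from −2.12 to −1.86, and all others are between −0.34 and 0.54.

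The other 8 member genes lay between −0.34 and 0.35, so each was within 1.5-fold. For comparison, 9.32% of all genes were 1.5-fold or more lower and 8.26% were 1.5-fold or more higher. Of these 8 genes 4 were below 0 and 4 above, with a median of −0.048. Of their 20 probe sets 10 were below 0 and 10 above, and 0 reached 1.5-fold.

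FKBP4 (FKBP52), the immunophilin that shares the HSP90 docking site with FKBP5 and promotes androgen receptor activity, was not lower. Its brightest probe set read 2607 in C4-2B and 2864 in the resistant line, a log2 difference of 0.14, and the next went from 1481 to 2155, a log2 difference of 0.54. The dim pair of FKBP4 probe sets had differences of −0.15 (from 135 to 122) and −0.03 (from 111 to 108). The 4 probe sets therefore disagreed in sign and covered 0.687, the widest range of any member, with the brighter pair above 0 and the dim pair below. By the probe sets that stand for the genes, the log2 difference of FKBP5 was 2.02 below that of FKBP4 (−2.02).

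The 2 HSP90 genes were nearly level between the arrays. HSP90AA1, the stress-inducible form, read 10248 in C4-2B and 10315 in the resistant line by the probe set that stands for it, a log2 difference of 0.01. Its 4 probe sets ranged from 0.01 to 0.17, all above 0, but after median centring the gene was at −0.04 and after quantile normalization at −0.03. HSP90AB1, the constitutive form, went from 8985 to 8122, a log2 difference of −0.15. Its other probe sets went from 7323 to 7261 (−0.01) and from 6484 to 6488, so that gene too was within 1.5-fold in each reading. Both proteins are close in sequence, and 4 of the 7 probe sets carry the _s_at ending, so shared signal between transcripts is possible and was not tested.

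PTGES3, which caps the mature HSP90 complex, was read by 1 probe set and went from 6399 to 5947, a log2 difference of −0.11. STIP1 (HOP), the adaptor between HSP70 and HSP90, had the highest difference of the members. Its probe sets went from 1407 to 1789, a log2 difference of 0.35, and from 1146 to 1569, a log2 difference of 0.45. Both readings were higher in C4-2B-MDVR, and 81.7% of all genes had a lower difference than the first, so a value of this size is common on these arrays.

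DNAJB1 (HSP40), the J-domain protein that stimulates HSP70, had intensities of 808 and 835 in its brighter probe set, a log2 difference of 0.05, and of 575 and 542 in the other, a log2 difference of −0.08. The sign was not settled: it changed between probe sets and, for the brighter one, after median centring (−0.0054). The 4 probe sets annotated jointly to HSPA8, the constitutive HSP70, and to the small nucleolar RNA genes SNORD14C and SNORD14D read from 11803 to 13222 in C4-2B and from 10829 to 12912 in the resistant line. Their differences were −0.12, −0.12, −0.04 and −0.02. All 4 were slightly below 0, and since the annotation gives each several genes, they were not counted for HSPA8.

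HSPB1 (HSP27), a small heat shock protein known to associate with the androgen receptor, went from 7316 to 6390 in its 1 probe set, a log2 difference of −0.20. STUB1, the chaperone-linked ubiquitin ligase, was the lowest member after FKBP5. Its 3 probe sets went from 7234 to 5712, from 2473 to 1947 and from 2066 to 1664, with log2 differences of −0.34, −0.34 and −0.31. The STUB1 readings lay within 0.0326 of each other, all lower in C4-2B-MDVR, and 17.7% of all genes had a lower difference. All 3 carry the _s_at or _x_at ending, as do 15 of the 23 member probe sets.

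**Figure D2:**
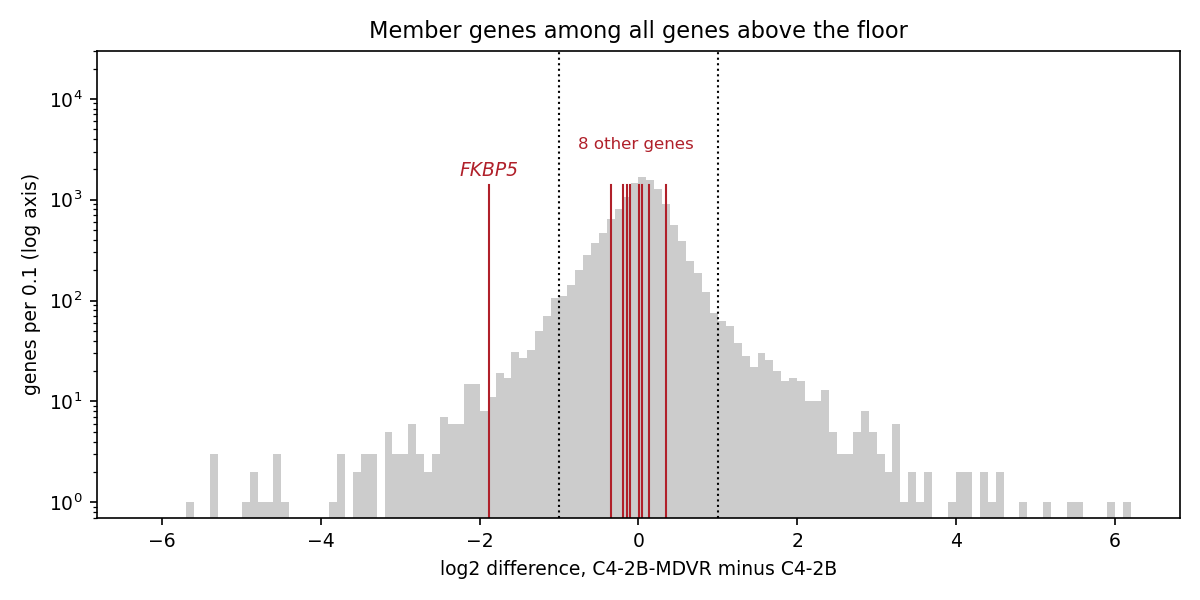
Distribution of the log2 difference (horizontal axis, C4-2B-MDVR minus C4-2B) over the 13437 genes above the floor, as genes per 0.1 on a log axis, with red lines at the 9 member genes and dotted lines at 2-fold. FKBP5 at −1.88 lies left of the dotted line, and the 8 other genes lie in the centre between −0.34 and 0.35.

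The relatives of each member were read from lists by role. Of 18 other HSP90 family members and HSP90 co-chaperones 15 were above the floor, with 0 higher and 0 lower by 2-fold and a median of −0.07. PPID (cyclophilin 40), which shares the docking site of FKBP5 and FKBP4 on HSP90, was lowest, from 1085 to 625 (−0.80). Its 3 probe sets ranged from −1.52 to −0.80 and their mean was −1.06, past 2-fold. NUDCD2 was at −0.41 with probe sets up to 0.11, and the kinase co-chaperone CDC37 was at −0.37. PPP5C, the phosphatase of receptor complexes, was at 0.01.

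Of 24 HSP70 family genes and exchange factors 22 were read and 21 were above the floor. HSPA1A and HSPA1B, whose probe sets name several genes, were not read. Of the 21 genes, 1 was higher and 0 lower, beside 3.17% and 3.50% of all genes above the floor. The median was −0.20, or −0.16 with values raised to the floor. The exchange factor HSPH1 (HSP110) went from 3675 to 1886 (−0.96), just within 2-fold, and its 3 probe sets ranged from −1.61 to −0.88 with a mean of −1.15. The mitochondrial exchange factor GRPEL2 was at −0.93 with its other probe set at −0.35. HSPA12A, a distant HSP70 relative, was at 1.26 but under the floor in C4-2B, and was at least 2.15-fold higher when the floor stood for that array; its other probe set was at 0.09. ST13 (HIP), which stabilizes HSP70 bound to its client, was at 0.52.

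Of 17 other J-domain proteins all 17 were above the floor, with a median of −0.24. By 2-fold 2 were lower (11.8%, beside 3.50% of all genes) and 0 higher (beside 3.17%). DNAJC12 went from 313 to 123 (−1.34), with probe sets up to −0.74, and DNAJB4 from 178 to 85.9 (−1.05), with its other probe set at −0.37. DNAJC3, an inhibitor of the stress kinase PERK, was at −0.89. Of the 17 genes 13 were below 0, or 76.5%, beside 44.8% of all genes above the floor. That share was not particular to J-domain proteins. It was 77.8% among chaperonins, 71.4% in the HSP70 list and 68.75% in the hormone-responsive list described below. In the HSP70 list, HSPA2 (43.0 to 25.1) passed the floor only through C4-2B, and HSPA12A only through C4-2B-MDVR. The floor rule thus fixed the sign of each. In the HSP90, immunophilin, heat shock factor and ubiquitin lists the share below 0 was from 53.3% to 55%, and among small heat shock genes 0%. Genes with a mean log2 intensity of 10 or more had a median of −0.036, against 0.041 for all genes. Whether the level of a gene bears on these shares was not tested. The mean of probe sets took both DNAJC12 (−0.97) and DNAJB4 (−0.71) within 2-fold and put DNAJC10, an endoplasmic reticulum reductase, at −1.02.

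Among 20 other immunophilins, all above the floor, 2 were higher and 0 lower, beside 3.17% and 3.50% of all genes. The median was −0.04. FKBP9, an isomerase of the endoplasmic reticulum, went from 167 to 681 (2.02) by 1 probe set, so the FKBP family held differences of about 4-fold in opposite directions. FKBP1B, a regulator of calcium release channels, went from 54.5 to 117 (1.10), also by 1 probe set. FKBP11 was at −0.79, with 3 probe sets from −0.79 to −0.76, and FKBP1A, the target of the drug FK506, at 0.77, with 4 probe sets from 0.32 to 0.87. The FKBP genes thus had no common direction.

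Of 9 other small heat shock protein genes 8 were read and 4 were above the floor, with differences from 0.12 to 1.03. HSPB7 (0.19) was among the 4 only through its value in C4-2B-MDVR, 44.6, and was under the floor in C4-2B at 39.0, so the count above 0 is no sign of a direction; of all 13437 genes above the floor, 7409 were above 0. HSPB8, a partner of BAG3 in selective autophagy, went from 86.9 to 177 (1.03), but its other probe set was at 0.07 and the gene was within 2-fold after median centring and after loess. CRYAB, the alpha-B crystallin, was at 0.67 and CRYAA at 0.12, both dim. Of 10 chaperonin genes 9 were read and all 9 were above the floor, with 0 beyond 2-fold and a median of −0.08. The lowest were HSPE1 (−0.30) and CCT5 (−0.28).

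Textbook targets of heat shock factors, with the factors themselves, made a list of 20 genes. HSPA1A, HSPA1B and HSPA8, whose probe sets name several genes, and HSF2 and AHSA1 were not read. The other 15 were all above the floor, and 4 of them are members. None was 2-fold higher and none 2-fold lower, and the median was −0.07. HSPH1 was lowest at −0.96 and, beyond 2-fold, by the mean of its probe sets and after median centring. BAG3 was at −0.32, DNAJA1 at 0.16, with probe sets of both signs, and the factor HSF1 at 0.05.

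Genes that, like FKBP5, are known targets of androgen or glucocorticoid receptors were mixed. Of 17 listed genes 16 were read and all 16 were above the floor. Of these, 4 were lower (25%, beside 3.50% of all genes above the floor) and 0 higher (beside 3.17%). The median was −0.28 (0.041 over all genes). The list was written knowing that several androgen targets were lower on these arrays, so it is not independent evidence of its direction. ZBTB16 (PLZF), a repressor that both receptors induce, went from 421 to 46.8 (−3.17) by 1 probe set and stayed just above the floor. ELL2 (−3.70), SLC45A3 (−3.42) and ABCC4 (−2.74) were the other three. The glucocorticoid-induced leucine zipper gene TSC22D3 went the other way, from 467 to 777 (0.74), and SGK1 (0.29), DUSP1 (−0.26) and KLF9 (−0.29) were within 1.5-fold.

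**Figure D3:**
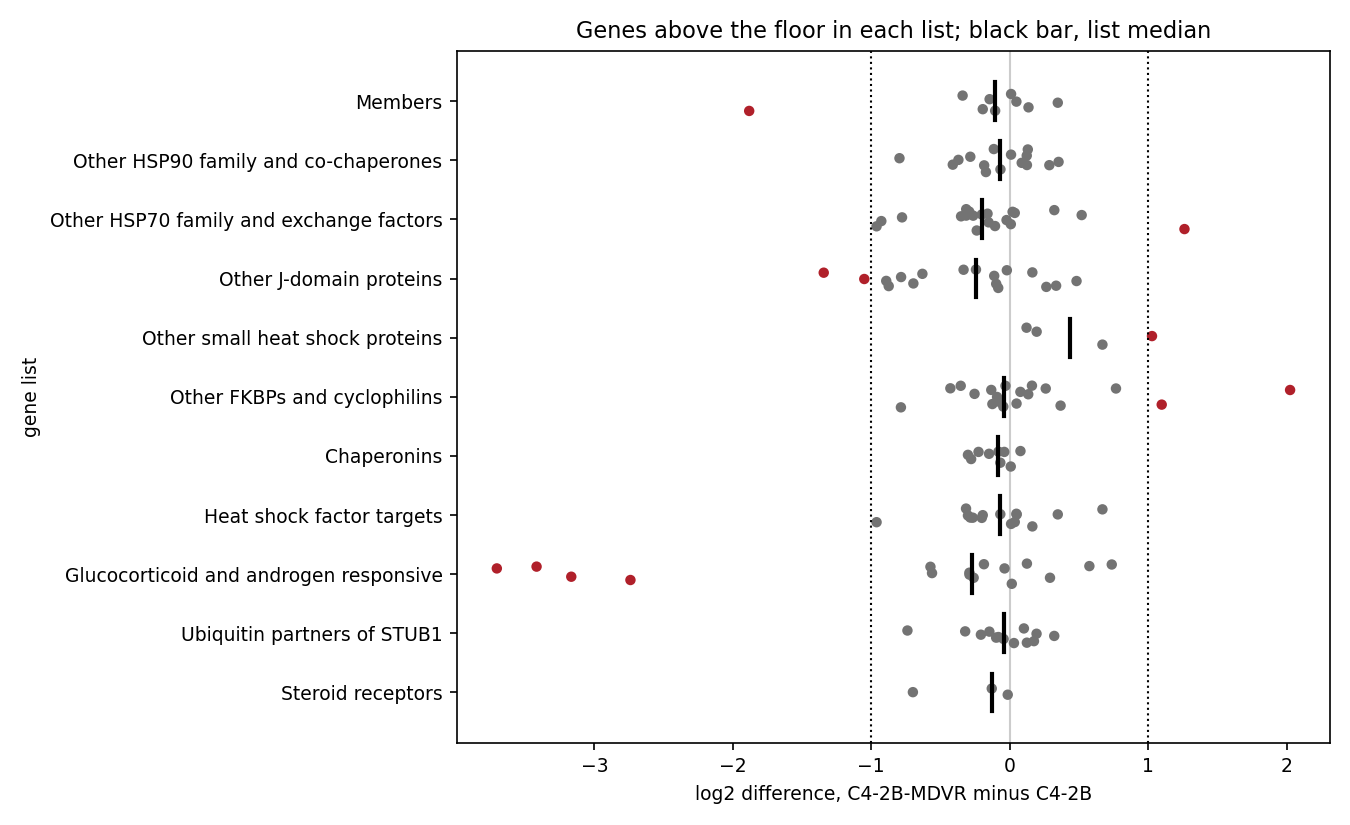
Log2 difference (horizontal axis, C4-2B-MDVR minus C4-2B) of each gene above the floor in the members' list and 10 lists of related genes (vertical axis), with points scattered vertically for legibility, red points at 2-fold or more, dotted lines at 2-fold and a black bar at each list median. FKBP5 is the red point among the members, and the hormone-responsive list holds 4 red points from −3.70 to −2.74.

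A list of 17 ubiquitin enzymes and related factors was set beside STUB1. UBE2D1, UBE2D2, UBE2D3 and UBE2V1 were not read. The other 13 were all above the floor, with 0 beyond 2-fold and a median of −0.04. The shuttle factor UBQLN1 was at −0.74, with other probe sets up to −0.10, UBQLN2 at −0.32 and the autophagy receptor SQSTM1 at 0.32. Of the 5 steroid receptor genes measured 3 were above the floor. NR3C2, the mineralocorticoid receptor gene, was at −0.70, with a value under the floor in the resistant line that makes it at least 1.10-fold lower. ESR1 was at −0.01 and ESR2 at −0.13, both dim. NR3C1, which encodes the glucocorticoid receptor, stayed below the floor on each array, at 28.5 and 36.9.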

How the data were processed

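The deposited table holds 54675 probe sets and 0 sample columns besides those of the 2 arrays. RNA was extracted with Trizol, amplified and biotinylated, per the labels' protocols. These name a whole-transcript amplification kit, whereas the probe sets are those of an array designed for the 3′ ends of transcripts; how this bears on the intensities was not tested. From their range, the authors deposited intensity values on a linear scale; how these were background-corrected, normalized and summarized is not given in the sources used here. Median intensity was 41.9 (C4-2B) and 43.5 (resistant line). The number of arrays limits the precision.

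Log2 was taken with no further scaling. Gene names came from the 2016 platform annotation (41097 with 1 symbol, 1801 with several, 11777 unnamed here), checked by Entrez identifier against RefSeq of GRCh38.p14 (41043 matched, 0 symbols changed). Those with several symbols were given no gene name. The probe set with the highest mean stood for a gene. Named were all members, and in each other list the genes beyond 2-fold and those with the largest differences; others were chosen after their values were seen. A further part of that rule, genes closest to FKBP5 in level, is not reported, since levels of different probe sets cannot be compared. The members and lists were chosen with earlier results of these data known. No test was possible with 1 array per line.

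Alternatives were median centring, quantile normalization, loess (span 0.3), averaging each gene's probe sets, no floor or a floor at the 25th or 75th percentile, 1.5-fold and 3-fold as the threshold, and raising values to the floor. Scripts were tested on simulated data. Python 3.11.15, numpy 2.4.6, pandas 2.3.3, statsmodels 0.14.6 and matplotlib 3.10.9 were used.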

Additional observations from a re-analysis of the deposited data

How the results depend on the processing

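FKBP5 lay between −1.96 and −1.82 under the 3 other scalings, the mean of its probe sets and values raised to the floor. The counts of 1 member gene and 3 member probe sets lower, and 0 higher, were the same under each scaling, floor and threshold tried and with values raised to the floor, and the gene counts also with the mean of probe sets. The median over member genes ranged from −0.16 after median centring to −0.05 with the mean of probe sets. The sign changed for HSP90AA1 (from −0.04 to 0.06) and DNAJB1 (from −0.02 to 0.12), and for none of the other 7 members under these 5 alternatives. The related lists held 120 genes above the floor, of which 4 were higher and 6 lower by 2-fold. Over all genes above the floor these shares were 3.17% and 3.50%. Averaging all probe sets of each gene gave 2 and 7, since other probe sets of these genes gave smaller or larger differences. Counting the joint probe sets for HSPA8, an alternative chosen after seeing the data, put it at −0.02. No paired analysis was possible because each line has 1 array. Values near the floor cannot show a decrease, which limits NR3C1, NR3C2 and the small heat shock genes more than the members.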
